A study of Mus musculus with 5 samples.

Results

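The cell cycle genes described here are 45 of the 28001 features counted in the unsorted libraries. They were matched by gene symbol, and all 45 symbols were found. By role they fall into 26 mitotic genes, 12 S-phase genes, 2 E-type cyclins, 3 D-type cyclins and 2 inhibitors of cyclin-dependent kinases. None of them was used to define a cell group.

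The study profiled single cells of mouse dorsal skin with droplet-based 3' RNA sequencing, in which each captured transcript is counted once by its unique molecular identifier (UMI). Control mice were Lepr-Cre;mTmG and mutant mice were Lepr-Cre;mTmG;Smo+/-, all females at postnatal day 46, with 2 unsorted libraries per genotype. A further library held sorted GFP-positive cells of Lepr-Cre;mTmG females at postnatal day 50, made with the older v2 chemistry. Every group thus carried Lepr-Cre, in which the leptin receptor gene drives the Cre recombinase, and mTmG, a reporter that turns from red to green fluorescence where Cre has acted. Smo encodes Smoothened, the transducer of Hedgehog signals. The labels write the control genotype both with and without Smo and do not say what the altered Smo allele does. The libraries of a genotype are called technical replicates, so p-values between genotypes measure only the spread between preparations. With 2 libraries against 2, an exact permutation test cannot give a p below 0.333.

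A dividing cell first copies its DNA in S phase and then separates the copies in mitosis. D-type cyclins with Cdk4 or Cdk6, and then E-type cyclins with Cdk2, start this program, in part by releasing E2F factors from the retinoblastoma protein, and Cdkn1a and Cdkn1b hold the kinases back. In skin, division is best known from the basal layer of the epidermis and from the growing hair follicle, while suprabasal keratinocytes leave the cycle as they differentiate and bulge stem cells and papilla cells rest for long periods.

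The mitotic and S-phase genes are textbook examples of shared promoter elements, so the elements were looked up in RefSeq promoter windows of the GRCm38.p6 build, each running from 250 bases before to 50 bases after a gene's start. Windows were found for 37 of the 45 genes (40 windows), and not for Aurkb, Ccna2, Tpx2, Mcm4, Gmnn, Ccne2, Ccnd1 and Ccnd2. The motifs searched on both strands were the cell cycle homology region CHR (TTTGAA or TTTAAA), the CCAAT box (CCAAT) and E2F sites (TTTCCCGC, TTTCGCGC, TTTGCCGC or TTTGGCGC), and E2F matches on opposite strands can overlap. The 250 bases before the start are shown for 2 mitotic and 2 S-phase genes that carry the comparisons below, 5' to 3' on the gene's strand, with every match in capitals. Top2a lies on the minus strand (chr11:99024190-99024439), Cdk1 on the minus strand (chr10:69352913-69353162), Mcm5 on the plus strand (chr8:75109259-75109508) and Mcm6 on the minus strand (chr1:128359706-128359955).
Top2a: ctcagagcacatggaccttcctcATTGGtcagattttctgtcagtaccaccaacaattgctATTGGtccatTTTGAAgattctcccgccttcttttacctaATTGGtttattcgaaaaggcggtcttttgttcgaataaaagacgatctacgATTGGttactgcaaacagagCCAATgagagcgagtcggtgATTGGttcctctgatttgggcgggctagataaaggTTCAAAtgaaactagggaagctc
Cdk1: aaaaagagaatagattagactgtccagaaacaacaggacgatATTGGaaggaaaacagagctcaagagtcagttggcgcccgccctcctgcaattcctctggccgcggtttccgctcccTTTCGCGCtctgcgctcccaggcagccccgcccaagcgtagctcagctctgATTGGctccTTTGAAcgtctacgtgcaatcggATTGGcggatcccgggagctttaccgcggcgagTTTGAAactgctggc
Mcm5: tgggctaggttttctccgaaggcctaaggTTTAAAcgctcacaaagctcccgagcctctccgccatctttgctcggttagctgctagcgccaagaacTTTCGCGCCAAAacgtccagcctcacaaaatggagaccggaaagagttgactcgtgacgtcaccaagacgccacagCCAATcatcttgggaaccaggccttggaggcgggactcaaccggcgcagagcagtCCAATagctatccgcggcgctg
Mcm6: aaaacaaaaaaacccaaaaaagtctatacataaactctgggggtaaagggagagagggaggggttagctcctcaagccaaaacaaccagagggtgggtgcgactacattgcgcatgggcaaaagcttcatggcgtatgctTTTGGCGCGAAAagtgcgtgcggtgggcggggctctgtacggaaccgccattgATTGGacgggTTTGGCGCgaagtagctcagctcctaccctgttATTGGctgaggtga
The Top2a stretch holds 2 CHR matches and 6 CCAAT boxes with 0 E2F matches. Cdk1 holds 2 CHR matches, 3 CCAAT boxes and 1 E2F match. Mcm5 holds 1 CHR match, 2 CCAAT boxes and 2 E2F matches, and Mcm6 holds 0, 2 and 3.

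Over all windows of the list, a CHR match was present in 21 of 23 mitotic windows (91.3%) and in 4 of 11 S-phase windows (36.4%), against 27.6% of all 32851 windows in the table. At least 2 CCAAT boxes were present in 13 of 23 mitotic windows (56.5%) and 5 of 11 S-phase windows (45.5%), against 11.7% of all windows. Both a CHR match and at least 2 CCAAT boxes were found in 12 of the mitotic windows (52.2%) and 1 of the S-phase windows (9.09%), against 3.13% overall. An E2F match was found in 1 mitotic window (4.35%, Cdk1) and 4 S-phase windows (36.4%), against 2.26% overall. These counts describe letters in the windows and are not evidence that a factor binds there.

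The 4 unsorted libraries held 10748 and 11072 barcodes in control and 11563 and 11816 in mutant skin, of which 8097, 8248, 8389 and 8663 were kept. Median depth was 9481 and 9764 UMIs per kept cell in control and 8467 and 8284 in mutant libraries. Pairs of unsorted libraries shared 38 to 82 barcodes (at most 0.96% of the smaller library). Between libraries of a genotype the chi-square per gene was 4.96 in control and 5.01 in mutant. Its sums held the T cells both as a whole group and again by subset. It also treats UMIs as independent draws although they come grouped in cells, so it cannot separate library differences from the sampling of cells. Cells were assigned to 15 groups of 180 to 6838 cells by marker scores, and 16.2% stayed unassigned. Defining markers were detected in these groups, for example the basal keratin gene Krt14 in 99.96% of basal cells, Cd3e and Cd3g in 83.0% and 89.1% of T cells, and Crabp1 and Wif1 in 87.2% and 71.7% of papilla cells. Basal keratinocytes made up 24.4% and 24.1% of kept cells in control and 16.9% and 16.9% in mutant libraries. Papilla cells moved the other way, from 3.92% and 3.94% to 9.18% and 8.66%. In GENCODE (GRCm38), 0 of the 45 genes overlap a coding gene on their own strand, and 10 overlap one on the other strand (Ube2c, Ccna2, Cdc20, Cdca8, Nusap1, Mcm7, Tk1, Ccne2, Ccnd1 and Ccnd3); how strand was used in counting is not given in the sources used here.

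Smo itself, the gene altered in the mutant, stood at 33.9 and 37.4 CPM in control and 43.1 and 40.4 CPM in mutant papilla cells, at 39.7 and 43.9 against 47.5 and 40.7 CPM in fibroblasts, and at 10.8 and 10.2 against 10.4 and 10.5 CPM in basal keratinocytes. Mutant libraries were thus not lower in Smo in the papilla. The labels do not say where the gene is altered, so 3' counts may not show the allele and do not check the genotype labels.

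Across the 15 groups, the mitotic genes were highest most often in basal keratinocytes. Levels are given as CPM, the UMI count of a gene scaled to the total of its group and library, per library or as the mean ± SD of 4 libraries. Of the 26 mitotic genes, 14 had their highest mean level in basal keratinocytes, 4 in T cells, 2 each in papilla cells and melanocytes, and 1 each in Langerhans cells, dermal sheath, mast cells and pericytes. Most of these leads were small against the spread: for only 3 mitotic genes (Cenpa, Ube2c and Cdca8) did the highest group lie clear of the next in all 4 libraries.

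Top2a, which untangles replicated chromosomes, stood at 34.4, 31.9, 23.7 and 20.1 CPM in basal keratinocytes (control, control, mutant, mutant) and at 19.0, 19.5, 35.0 and 35.9 CPM in T cells. The means of these groups were 27.5 ± 6.73 and 27.3 ± 9.37 CPM, and their libraries overlapped. Ube2c, the ubiquitin-conjugating enzyme of the anaphase-promoting complex, was at 17.5 ± 3.45 CPM in basal keratinocytes and 10.3 ± 2.29 CPM in Langerhans cells, the next group. Cenpa departed from the other mitotic genes. This centromeric histone variant stood at 655, 611, 496 and 551 CPM in T cells, against 151 ± 26.6 CPM in mast cells and 15.4 ± 1.87 CPM in basal keratinocytes. Hmgb2, a chromatin protein counted among the mitotic genes, was also spread widely, from 98.6 ± 23.9 CPM in Schwann cells to 447 ± 121 CPM in T cells and 416 ± 25.5 CPM in bulge keratinocytes.

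**Figure D1:**
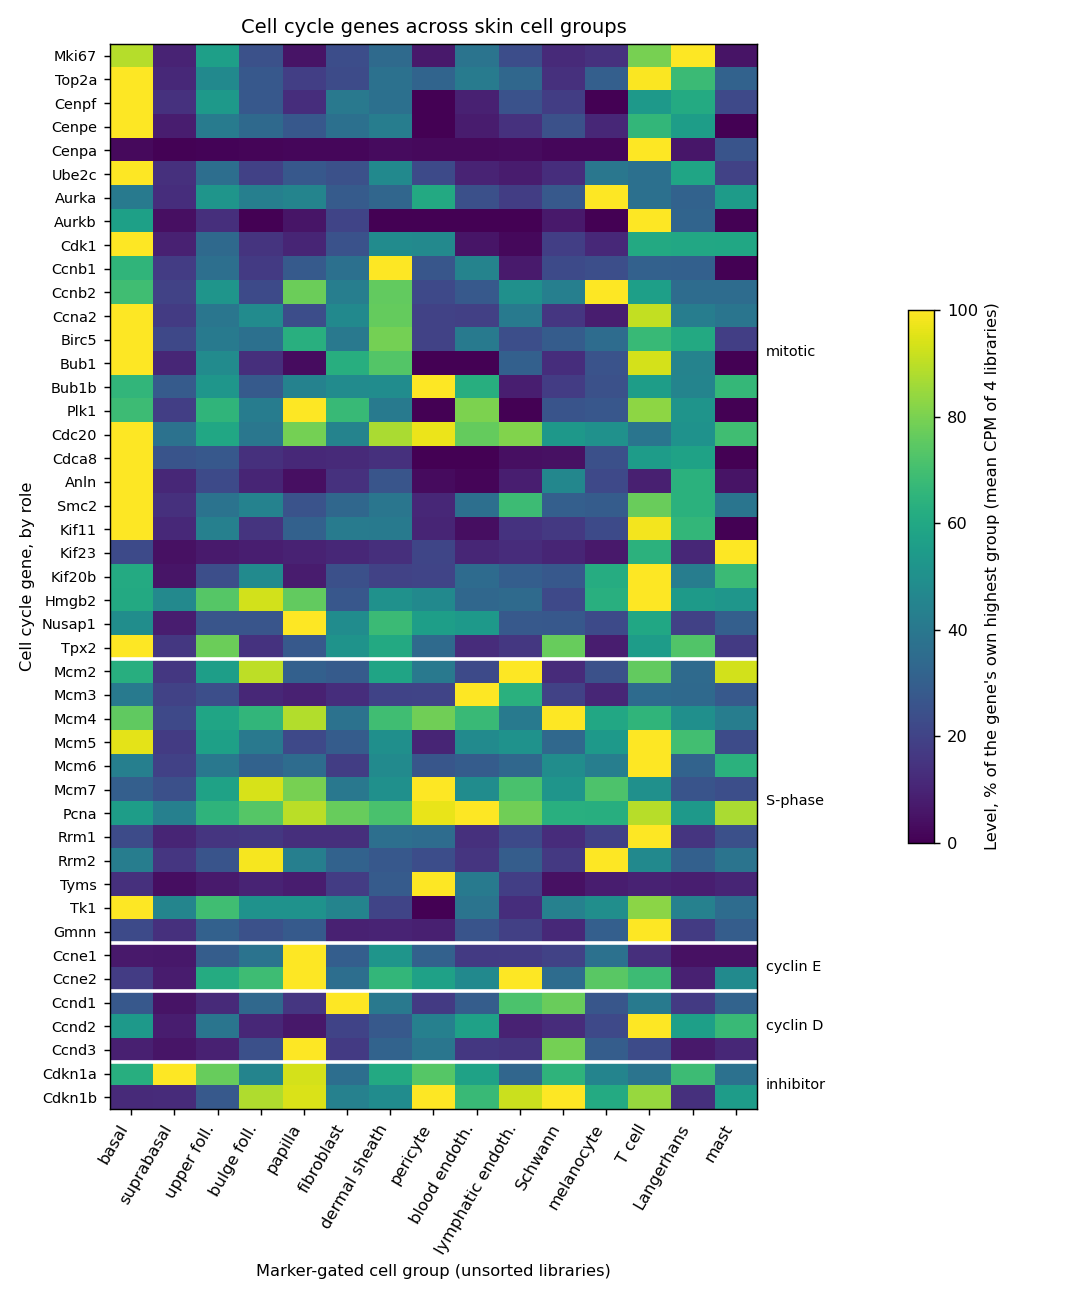
Level of each of the 45 genes (vertical axis, ordered by role) in each of 15 cell groups (horizontal axis), as a percentage of the gene's own highest group, from the mean CPM of 4 unsorted libraries. The basal column is bright for most mitotic genes, while Cenpa is bright in T cells (578 CPM) and dim elsewhere, and the 3 D-type cyclins peak in 3 different groups.

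Mki67, the proliferation antigen that coats mitotic chromosomes, was highest not in basal keratinocytes (20.2 ± 4.99 CPM) but in cells assigned to Langerhans cells (22.8 ± 3.51 CPM), with overlapping libraries. The summed basal marker list in those Langerhans cells was 11150, 11488, 10322 and 10189 CPM, so basal transcripts accompanied the mitotic ones. Split at the median of the basal markers, the 492 cells above it had a median of 57316 UMIs and a summed level of the mitotic genes without Hmgb2 and Cenpa (24 genes) of 209, 152, 148 and 122 CPM. The 492 cells at or below it had a median of 9111.5 UMIs and 75.7, 79.2, 97.9 and 98.2 CPM. The part of mixed droplets in the Langerhans values was not tested.

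The share of cells with UMIs of at least 2 mitotic genes was counted after every cell was thinned to 2000 UMIs, because deeper cells show more genes. With all 26 genes, T cells led at 26.8%, 28.0%, 30.9% and 31.8%, and basal keratinocytes stood at 14.5%, 13.8%, 11.4% and 11.0%. Without Hmgb2 and Cenpa, a choice made after seeing their wide spread, T cells dropped to 1.95%, 1.81%, 3.06% and 3.21%, and basal keratinocytes stood at 9.12%, 8.99%, 5.92% and 5.65%. Langerhans cells had 4.803%, 6.85%, 3.31% and 4.29%. Schwann cells, which seldom divide in adult nerve, gave a background of 0.699% to 1.05%, and the range over the 11 groups other than basal, T, Langerhans and mast cells was 0% to 3.89%. Unthinned, the 24-gene share was 36.4%, 36.5%, 31.1% and 28.6% in basal keratinocytes (median 17137 UMIs per cell) and 2.95% to 6.91% in Schwann cells (median 4638 UMIs).

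**Figure D2:**
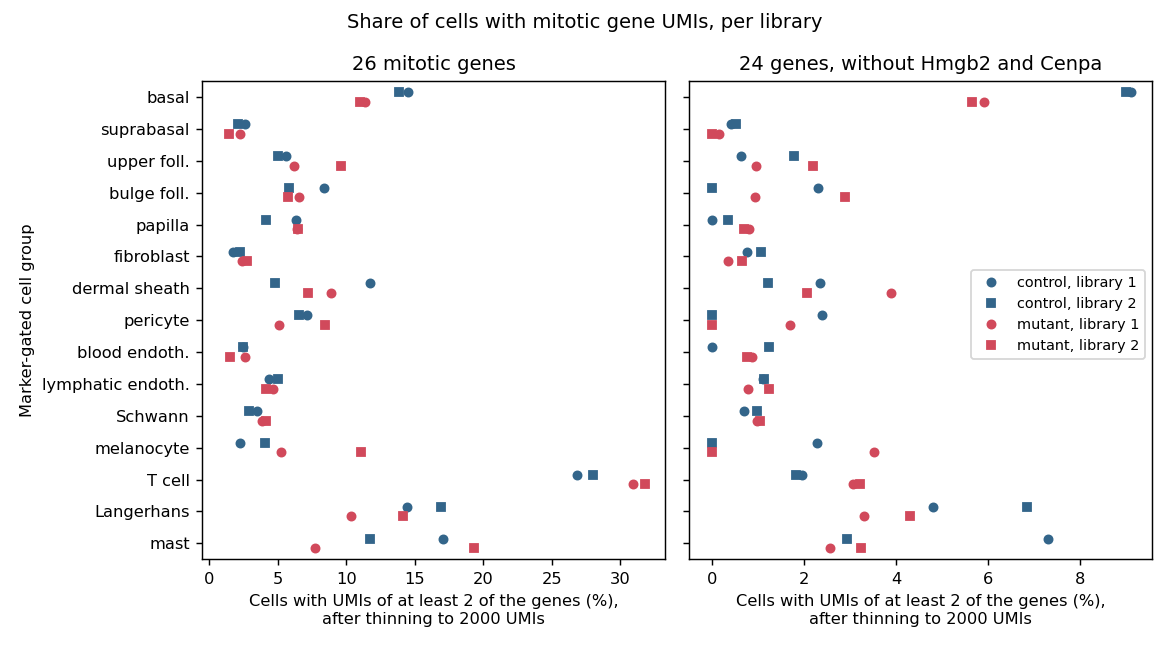
Percentage of cells with UMIs of at least 2 mitotic genes after thinning to 2000 UMIs, per library, for all 26 genes (left) and for 24 genes without Hmgb2 and Cenpa (right), blue for control and red for mutant libraries. On the right, both control libraries of basal keratinocytes (9.12% and 8.99%) exceed every other group, while their mutant libraries (5.92% and 5.65%) lie below 1 Langerhans library (6.85%) and 1 mast cell library (7.32%).

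The S-phase genes had no common peak. Of 12, 4 were highest in T cells (Mcm5, Mcm6, Rrm1 and Gmnn), 2 in blood endothelial cells, 2 in pericytes and 1 each in basal keratinocytes, Schwann cells, melanocytes and lymphatic endothelial cells. Pcna, the sliding clamp of DNA polymerase, was found in every group, from 47.2 ± 4.42 CPM in suprabasal keratinocytes to 109 ± 19.6 CPM in blood endothelial cells. Tyms, which makes thymidylate, stood at 76.2, 73.8, 56.3 and 92.7 CPM in pericytes, clear of the 30.7 ± 6.49 CPM in blood endothelial cells, from 17 to 26 UMIs per pericyte library. Gmnn, an inhibitor of replication licensing, was at 16.0, 14.2, 22.3 and 27.6 CPM in T cells, clear of the 6.23 ± 0.93 CPM in upper follicle keratinocytes. Rrm1, the large subunit of ribonucleotide reductase, averaged 71.1 ± 33.4 CPM in T cells, with both control libraries (97.0 and 103 CPM) far above both mutant libraries (39.1 and 45.7 CPM).

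Within basal keratinocytes the mitotic and S-phase genes were higher in cells with a Mki67 UMI. Cells with a Mki67 UMI made up 18.4%, 18.2%, 14.0% and 11.5% of basal keratinocytes. All of the other 25 mitotic genes and all 12 S-phase genes had a higher CPM in these cells than in the rest, in each of 4 libraries. The ratio of levels ran from 1.97 (Hmgb2) to 54.2 (Aurkb) with a median of 9.82 for mitotic genes, and from 1.35 (Pcna) to 6.98 (Mcm5) with a median of 3.16 for S-phase genes. Aurkb, the kinase of the chromosomal passenger complex, was at 4.16 CPM with and 0.0768 CPM without Mki67. The D-type cyclins did not share this: the ratio was 1.04 for Ccnd1, 1.02 for Ccnd3 and 0.855 for Ccnd2, which was lower with Mki67 in 4 of 4 libraries. Cdkn1a and Cdkn1b had ratios of 1.10 and 1.42. These ratios are a description, since cells with a Mki67 UMI were also deeper (library medians of 28655 to 38752 against 15542 to 16528 UMIs). The share of all genes that were higher with Mki67 in all 4 libraries was not counted, here or in the T cells below.

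In T cells, 22 of the 25 mitotic genes and 12 of 12 S-phase genes were higher with Mki67 in all 4 libraries, over the 1.80%, 2.75%, 2.88% and 2.85% of T cells that had a Mki67 UMI. Cenpa went the other way, at 296 CPM with and 591 CPM without Mki67, lower in 4 of 4 libraries. Ccnd1 (ratio 0.394), Ccnd2 (0.583) and Cdkn1a (0.582) were likewise lower in each library. Over all T cells, the levels of Cenpa and Ccnd2 thus did not rise with Mki67. Cells with a UMI of Gucy2c or Nap1l5, a subset described below, had more Cenpa, Ccnd1, Ccnd2 and Cdkn1a. Cenpa ran from 768 to 847 CPM with these UMIs and from 296 to 333 CPM without. Cells with a Mki67 UMI numbered 7, 22, 10 and 3 in that subset and 16, 14, 20 and 28 outside it. The part of the subset in these ratios was not tested. Cells with a Mki67 UMI were again deeper (library medians of 5522 to 9657 against 4292 to 4898 UMIs).

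**Figure D3:**
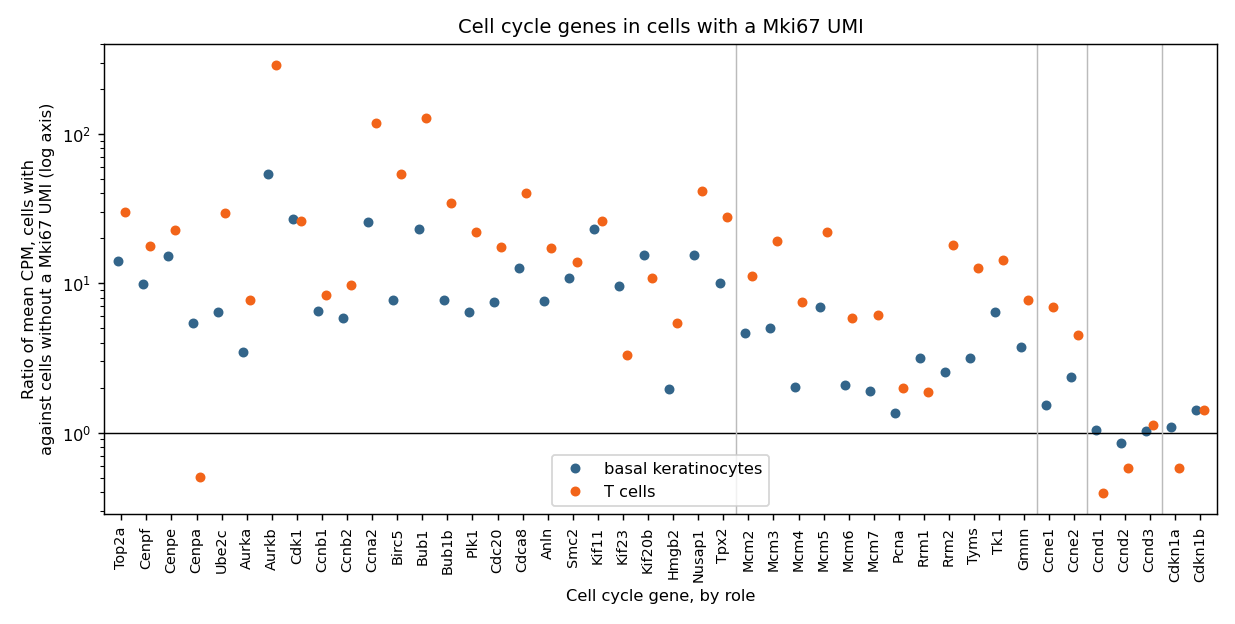
Ratio of a gene's level (mean CPM of 4 libraries) in cells with a Mki67 UMI to that in cells without, on a log axis, for basal keratinocytes (blue) and T cells (orange), genes ordered by role. Mitotic and S-phase genes lie above 1 in both groups apart from Cenpa in T cells (0.501), and the D-type cyclins lie between 0.394 and 1.13.

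The 3 D-type cyclins, which bind Cdk4 and Cdk6 and link outside signals to the cycle, peaked in different cells. Ccnd1 stood at 91.8, 97.6, 71.2 and 74.6 CPM in fibroblasts, its highest group, and at 64.6 ± 10.8 CPM in Schwann cells and 60.05 ± 15.2 CPM in lymphatic endothelial cells, with overlapping libraries along this order. It was lowest in suprabasal keratinocytes at 4.24, 4.20, 5.11 and 4.60 CPM, clear of the next group, upper follicle keratinocytes at 10.1 ± 1.79 CPM. Ccnd2 was highest in T cells at 945, 908, 772 and 861 CPM, clear of mast cells at 590 ± 95.2 CPM. Blood endothelial cells (497 ± 111 CPM), Langerhans cells (492 ± 64.3 CPM) and basal keratinocytes (468 ± 71.0 CPM) followed without a clear order. Papilla cells had the least Ccnd2, 61.0, 51.5, 50.2 and 64.6 CPM, below suprabasal keratinocytes at 68.9 ± 3.35 CPM.

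Ccnd3 had the reverse place in the papilla. It was highest there, at 203, 220, 150 and 160 CPM, and next in Schwann cells at 145 ± 10.5 CPM, which overlapped the mutant papilla libraries. All other groups were at or below the 71.9 ± 16.1 CPM of pericytes, down to 10.6 ± 0.70 CPM in suprabasal keratinocytes. The E-type cyclin Ccne1, which pairs with Cdk2 at the start of S phase, was also highest in the papilla, at 22.0, 32.3, 23.0 and 20.5 CPM, clear of the dermal sheath at 12.8 ± 1.75 CPM. Ccne2, its relative, was at 8.35 CPM in lymphatic endothelial cells and 8.33 CPM in the papilla, with overlapping libraries.

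Of the inhibitors, Cdkn1a was abundant in every group. It stood at 1449, 1431, 1419 and 1440 CPM in suprabasal keratinocytes and at 1550, 1483, 1156 and 1172 CPM in the papilla, and lowest in lymphatic endothelial cells at 474 ± 41.0 CPM. Cdkn1b was highest in pericytes (99.6 ± 14.0 CPM), Schwann cells (99.3 ± 11.4 CPM), papilla cells (93.8 ± 3.72 CPM) and lymphatic endothelial cells (91.8 ± 3.20 CPM), which overlapped. It was lowest in basal keratinocytes (11.9 ± 0.40 CPM), where libraries overlapped those of suprabasal keratinocytes (12.3 ± 0.89 CPM).

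**Figure D4:**
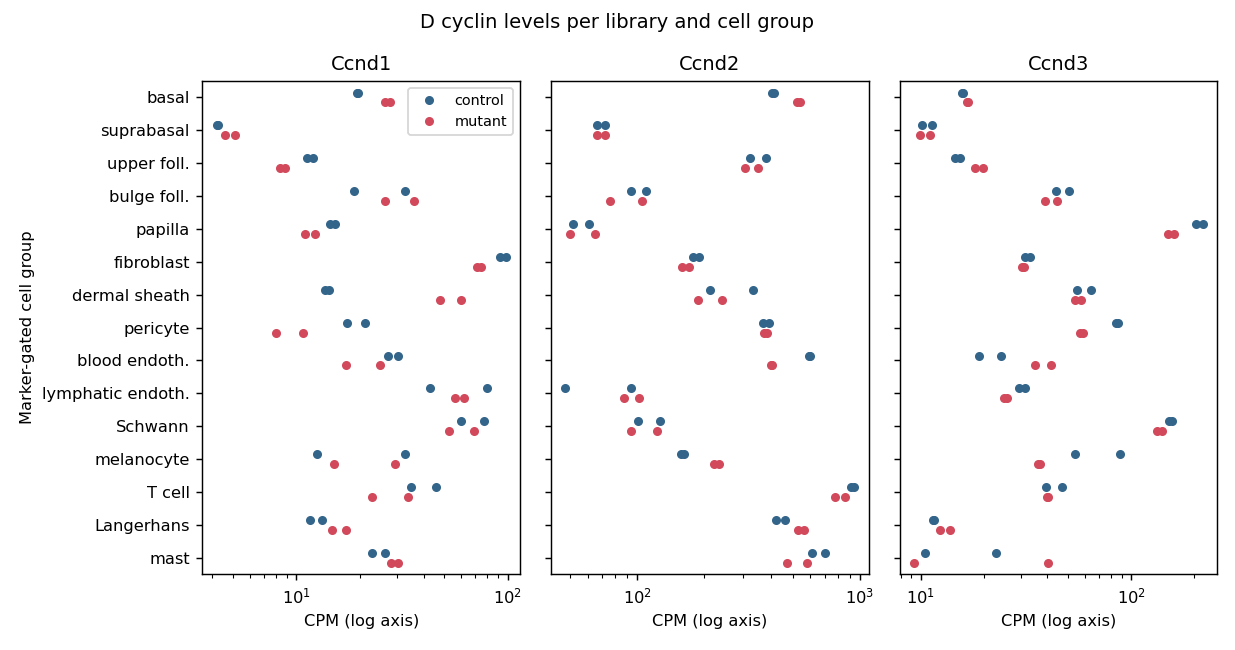
CPM of Ccnd1, Ccnd2 and Ccnd3 on log axes in each of 15 cell groups, with a point per unsorted library (blue control, red mutant). Fibroblasts lead for Ccnd1 (71.2 to 97.6 CPM), T cells for Ccnd2 (772 to 945 CPM) and papilla cells for Ccnd3 (150 to 220 CPM).

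Basal and suprabasal keratinocytes were compared within the same 4 libraries, to ask whether replication and mitosis genes were higher in the layer that holds dividing cells. Nearly all mitotic genes were higher in the basal layer. A gene counts as called at an adjusted p under 0.05 (edgeR quasi-likelihood test, Benjamini-Hochberg over all genes) with a log2 change of at least 1 in size, and 15.1% of 13555 genes were called higher in basal cells (25.8% in either direction). Of the 45 cell cycle genes 32 were called higher and 0 lower: 25 of 26 mitotic genes, 5 of 12 S-phase genes, Ccnd1 and Ccnd2. Their median log2 change was 1.72, against 0.01 over all genes.

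Mki67 stood at 25.4, 23.2, 17.8 and 14.5 CPM in basal and at 2.86, 2.06, 1.64 and 2.46 CPM in suprabasal keratinocytes, a log2 change of 2.99 ± 0.12 (SE, edgeR adjusted p = 1.87e-09). The layers did not overlap, which was not counted over all genes, of which 74.0% passed by adjusted p alone. Aurkb (3.72 ± 0.46), the kinetochore motor Cenpe (3.40 ± 0.17) and Cdk1 (3.25 ± 0.19), the kinase that drives entry into mitosis, had the largest log2 changes among mitotic genes. Top2a changed by 2.92 ± 0.10 and Ccnb1, the cyclin of Cdk1, by 1.68 ± 0.15. Hmgb2 was the exception, with a log2 change of 0.16 ± 0.03.

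Among S-phase genes, Mcm5, a subunit of the replicative helicase, stood at 8.64, 8.66, 8.85 and 6.61 CPM in basal and 1.56, 1.41, 1.03 and 1.95 CPM in suprabasal keratinocytes, a log2 change of 2.27 ± 0.16. Mcm2 (1.72 ± 0.14), Tyms (1.69 ± 0.12), Mcm4 (1.58 ± 0.09) and Rrm2 (1.23 ± 0.10), the small subunit of ribonucleotide reductase, were also called. Its helicase partner Mcm6 (0.96) and Pcna (0.16) differed by adjusted p with less than the fold minimum; 74.0% of all genes passed by adjusted p alone in this comparison. Ccnd2 was 2.54 ± 0.06 and Ccnd1 2.12 ± 0.07 higher on the log2 scale in basal cells, and Ccnd3 0.40 ± 0.06. Cdkn1a was lower in basal cells by adjusted p, with a log2 change of -0.87 ± 0.02, and so was Cdkn1b at -0.25 ± 0.06. Of 56 further cell cycle genes on a fixed list, 55 could be tested, 32 were called higher and 3 lower.

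Bulge keratinocytes, the resting stem cell region of the follicle, were compared with basal keratinocytes in the same way. Mitotic genes were lower in the bulge and E-type cyclins and Cdkn1b were higher. Of the 45 genes 31 were called lower, against 19.6% of 13667 genes, and 4 higher, against 22.8% (42.4% in either direction). The called genes comprised 23 of 26 mitotic genes, all lower, and 6 S-phase genes lower. The median log2 change of the list was -1.63, against -0.03 over all genes.

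Mki67 was at 9.28, 0, 0 and 13.3 CPM in the bulge, from 17, 0, 0 and 23 UMIs, so that its log2 change of -2.37 ± 0.44 averages libraries that differed greatly. Top2a followed the same uneven pattern, at 8.73, 2.82, 1.41 and 17.4 CPM, with a log2 change of -2.40 ± 0.34. Aurkb had 0 of 6742860 UMIs in the bulge against 1.22 CPM in pooled basal cells, at least 2.75-fold lower by the limit that 3 counts over the group would set. Anln, a scaffold of cytokinesis, was at 0.546, 1.69, 1.41 and 5.22 CPM against 26.1, 24.7, 19.5 and 16.8 CPM in basal cells (log2 change -3.87 ± 0.32). Cdca8, a partner of Aurkb, changed by -3.42 ± 0.27, Cdk1 by -3.24 ± 0.45 and Ccnb1 by -2.48 ± 0.43.

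Among S-phase genes the helicase subunits split. Mcm3 (-2.45 ± 0.23), Mcm5 (-1.78 ± 0.30) and Mcm6 (-1.03 ± 0.26) were lower in the bulge on the log2 scale, and so was Tk1, a thymidine kinase (-1.58 ± 0.45). Mcm7 was higher, at 30.6, 23.7, 31.8 and 35.4 CPM against 9.81, 9.67, 9.61 and 10.0 CPM in basal cells (log2 change 1.04 ± 0.14). Pcna (-0.19, adjusted p = 0.0688 by edgeR) did not pass, and Rrm2 was 0.65 higher with less than the fold minimum. Ccne1 (1.94 ± 0.27) and Ccne2 (1.40 ± 0.29) were called higher. Ccnd2 was lower (-2.85 ± 0.11), Ccnd1 did not pass (-0.28 ± 0.15), and Ccnd3 was higher below the fold minimum (0.88 ± 0.12). Cdkn1b was higher (2.30 ± 0.10) and Cdkn1a lower (-1.06 ± 0.06).

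Papilla cells, the signalling centre at the follicle base, and dermal fibroblasts are both mesenchymal, and the comparison asked how their cycle genes differ. The clearest difference was a change of D-type cyclin: Ccnd3 was higher in the papilla and Ccnd1 and Ccnd2 were lower. Of the 45 genes 38 could be tested, and 6 were called higher and 7 lower in the papilla, against 11.6% and 16.0% of 12872 genes (27.5% in either direction), so the share called among cell cycle genes was near that background. Ccnd3 stood at 203, 220, 150 and 160 CPM in the papilla and at 32.9, 31.2, 30.2 and 31.1 CPM in fibroblasts, a log2 change of 2.20 ± 0.10 (edgeR adjusted p = 7.02e-06). Ccnd1 stood at 14.4, 15.2, 12.2 and 10.9 CPM against 91.8, 97.6, 71.2 and 74.6 CPM, a log2 change of -2.99 ± 0.08, and Ccnd2 changed by -1.95 ± 0.10. No papilla library overlapped a fibroblast library for these 3 genes. How many of all genes were apart in this way was not counted, and 66.5% passed by adjusted p alone. 

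Ccne1 (1.37 ± 0.17), Ccne2 (1.11 ± 0.21), Cdkn1a (1.02 ± 0.09), Hmgb2 (1.16 ± 0.06) and Gmnn (1.29 ± 0.18) were also called higher in the papilla. Mki67 was at 0.946, 0.808, 1.12 and 2.11 CPM in the papilla, from 4 to 15 UMIs per library, against 4.82, 8.10, 4.13 and 4.58 CPM in fibroblasts, a log2 change of -2.31 ± 0.34. Anln (-2.11 ± 0.38), the kinetochore protein Cenpf (-2.05 ± 0.34), Tpx2 (-1.29 ± 0.27) and Tyms (-1.41 ± 0.23) were lower too. Top2a (-0.51 ± 0.26), Mcm5 (-0.71 ± 0.36), Pcna (-0.10 ± 0.06) and Rrm2 (0.06 ± 0.23) did not pass, while Mcm6 (0.66 ± 0.17) and Cdkn1b (0.79 ± 0.08) passed below the fold minimum. Cdk1 and Ccnb1 were too low to be tested.

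In the sorted library, 194 of 432 kept cells scored as papilla, with 469250 UMIs in all. The D-type cyclins gave 300 UMIs, or 639 CPM (exact 95% Poisson interval 569 to 716, counting error only), of which Ccnd3 had 281, Ccnd2 15 and Ccnd1 4. Mki67 had 1 UMI, or 2.13 CPM (exact 95% Poisson interval 0.0540 to 11.9). Top2a had 0 UMIs, which by the limit of 3 counts allows up to 6.39 CPM. The 24 mitotic genes without Hmgb2 and Cenpa had 10 UMIs, or 21.3 CPM. S-phase genes had 70 UMIs (149 CPM) and the inhibitors 190 UMIs (405 CPM). Summed D-type cyclins in unsorted papilla cells were 278, 286, 213 and 236 CPM. Chemistry, age and sorting all differ between these libraries, so no comparison was made.

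Between genotypes, the basal keratinocytes of mutant skin had less of nearly all mitotic genes and more Ccnd1 and Ccnd2. The changes were small: only Aurkb was called with the fold minimum, as lower, against 0.38% of 14720 genes called lower and 1.86% called higher (2.24% in either direction), and with DESeq2 it was not (adjusted p = 0.0502). By adjusted p alone 27 of the 45 genes were lower (22 mitotic and 5 S-phase), against 11.0% of all genes, and 2 were higher, also against 11.0%. All 26 mitotic genes had a negative log2 change, and for 24 of them both mutant libraries lay below both control libraries, an order that 29.4% of all genes tested also had (30.3% had the reverse order). The median log2 change was -0.52 for mitotic genes, -0.18 for S-phase genes and 0.00 over all genes. Of 55 further cell cycle genes tested, 28 were lower by adjusted p alone and 0 higher, with log2 changes down to -0.87.

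Levels beside changes between genotypes are CPM after TMM scaling of the libraries. Aurkb stood at 1.55 and 1.55 CPM in control and 0.731 and 0.787 CPM in mutant basal keratinocytes, a log2 change of -1.03 ± 0.21 (edgeR adjusted p = 0.00177). Mki67 stood at 25.6 and 23.4 CPM in control and 17.6 and 14.5 CPM in mutant cells, a log2 change of -0.61 ± 0.07 (adjusted p = 1.27e-05). Top2a stood at 34.6 and 32.1 CPM in control and 23.4 and 20.04 CPM in mutant cells, a log2 change of -0.62 ± 0.06 (adjusted p = 1.74e-06). Control and mutant libraries did not overlap for any of these 3 genes. Cenpf fell by 0.92 ± 0.07, Cdk1 by 0.75 ± 0.11 and Ccnb1 by 0.63 ± 0.11 on the log2 scale. The mitotic genes that did not pass were Aurka (-0.38), Bub1 (-0.57), Plk1 (-0.11) and Kif20b (-0.47).

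Fewer S-phase genes moved in basal keratinocytes. Tk1 (-0.68 ± 0.14), Mcm2 (-0.56 ± 0.13), Mcm4 (-0.43 ± 0.06), Rrm1 (-0.36 ± 0.06) and Tyms (-0.32 ± 0.07) fell by adjusted p alone. Mcm5 (-0.18 ± 0.10), Mcm6 (-0.17 ± 0.08), Pcna (0.04 ± 0.04) and Rrm2 (0.07 ± 0.08) did not pass. Ccnd1 rose from 19.7 and 19.4 to 27.2 and 26.2 CPM, a log2 change of 0.45 ± 0.05 (edgeR adjusted p = 4.07e-06). Ccnd2 rose from 414 and 406 to 515 and 537 CPM, a log2 change of 0.36 ± 0.03 (edgeR adjusted p = 3.41e-07). Both D-type cyclins were thus higher in both mutant libraries, while Ccnd3 (0.05 ± 0.05), Cdkn1a (0.03 ± 0.03) and Cdkn1b (0.02 ± 0.06) did not pass.

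**Figure D5:**
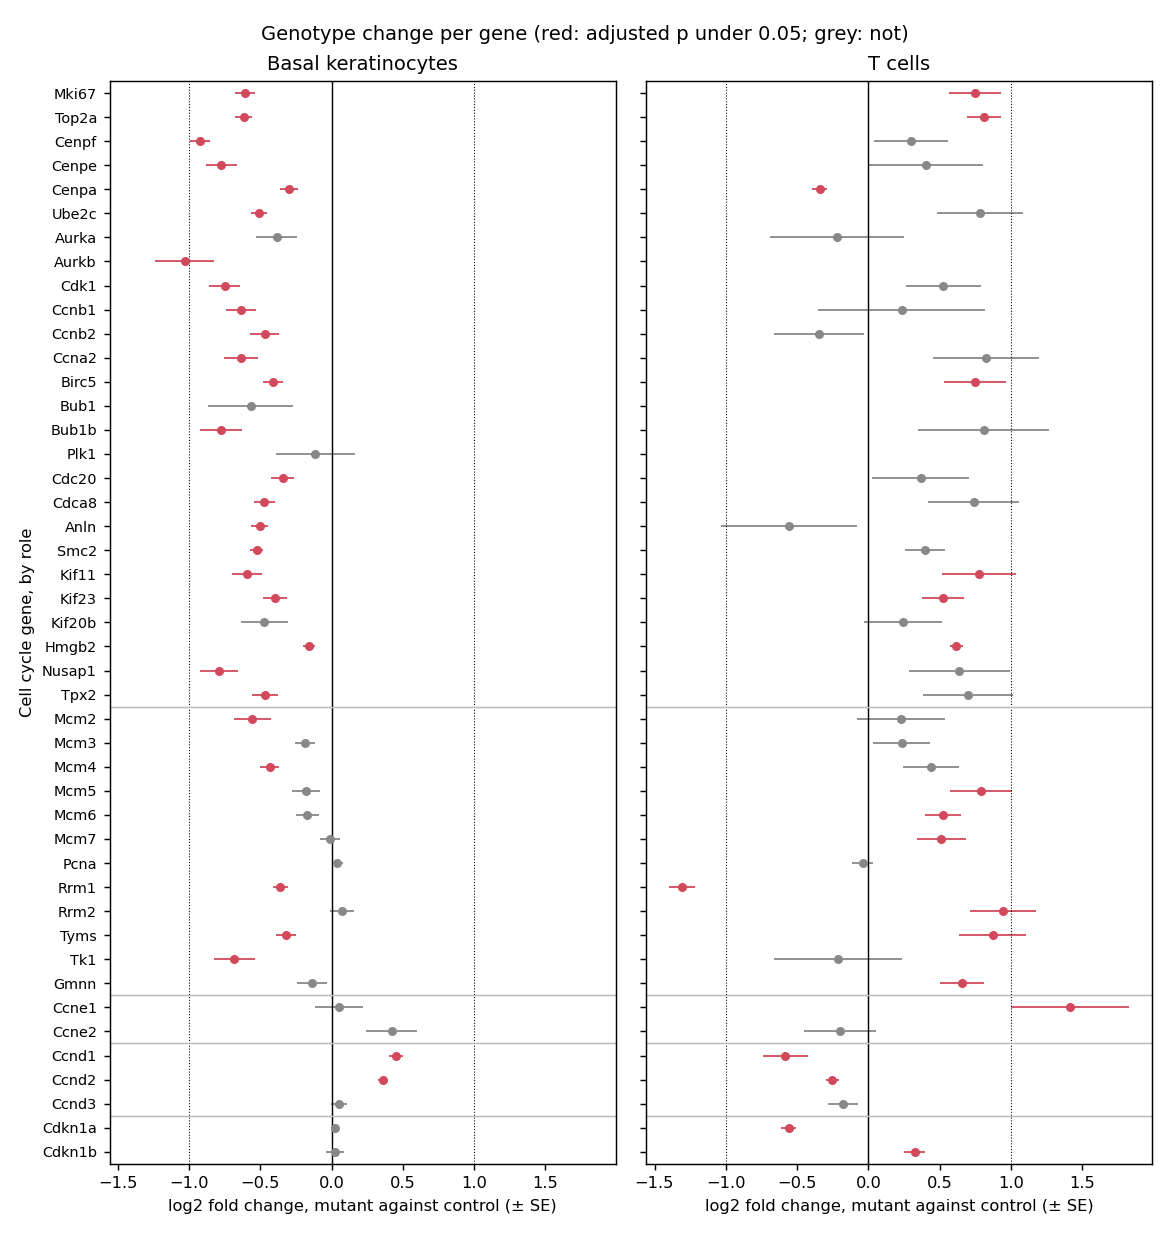
Log2 fold change of each cell cycle gene between mutant and control libraries with its SE, in basal keratinocytes (left) and T cells (right), red where the edgeR adjusted p is under 0.05 and grey elsewhere, with dotted lines at the fold minimum. In basal keratinocytes all 26 mitotic genes lie left of 0 and Ccnd1 and Ccnd2 lie right of it, and in T cells 19 of 23 tested mitotic genes lie right of 0.

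The share of basal keratinocytes with at least 2 of the 26 mitotic genes after thinning was lower in both mutant libraries than in both control libraries (14.5% and 13.8% against 11.4% and 11.0%, two-sided exact permutation p = 0.333, the smallest possible). The share of cells with a Mki67 UMI was lower too, at 18.4% and 18.2% against 14.0% and 11.5%. For S-phase genes the share was 4.59% and 4.47% against 4.21% and 4.07% (unthinned 55.6%, 56.3%, 56.2% and 51.0%). Summed levels of the 24 mitotic genes were 272 and 251 against 189 and 170 CPM, of S-phase genes 164 and 165 against 157 and 147 CPM, and of D-type cyclins 446 and 438 against 565 and 580 CPM. The summed basal marker list was 16310 and 16116 CPM in control and 15292 and 15584 CPM in mutant basal keratinocytes, the suprabasal list 1251 and 1257 against 1353 and 1346 CPM, and the upper follicle list 3470 and 3330 against 3789 and 3691 CPM. The part of these marker shifts in the mitotic difference was not tested.

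In the other keratinocyte groups few or no genes passed. In suprabasal keratinocytes 0 of 40 tested genes were called, against 1.33% of 12144 genes, and only Pcna passed by adjusted p alone (0.22 ± 0.05), against 3.94% of genes higher and 3.75% lower (7.69% in either direction). By DESeq2 0 genes passed. Mki67 (-0.28 ± 0.27), Top2a (-0.41 ± 0.27), Cdk1 (-0.55 ± 0.59) and Ccnb1 (-0.58 ± 0.34) were negative with large errors, and 4 genes had an unadjusted p under 0.05. Of 21 mitotic genes tested there, 18 had a negative log2 change (median -0.28), against 49.8% of all genes. Mcm5 (-0.02), Mcm6 (0.15), Rrm2 (0.15), Ccnd1 (0.18), Ccnd2 (-0.02), Ccnd3 (-0.05), Cdkn1a (-0.03) and Cdkn1b (0.13) did not pass either. In upper follicle keratinocytes 0 of 41 tested genes passed by edgeR with or without the fold minimum, against 0.327% and 0.663% of 11014 genes, 3 had an unadjusted p under 0.05, and DESeq2 also gave 0. Without mutant library 2, 5 genes were called, and 2 without control library 1 or mutant library 1. Mki67 there was at 8.57 and 22.6 CPM in control and 7.28 and 13.2 CPM in mutant libraries, with a log2 change of -0.58 ± 0.42, so that libraries of a genotype differed more than the genotypes. Top2a (0.06), Cdk1 (1.05 ± 0.53), Ccnb1 (0.38), Mcm5 (0.01), Mcm6 (-0.17), Pcna (0.13), Rrm2 (0.79 ± 0.30), Ccnd1 (-0.44), Ccnd2 (-0.11), Ccnd3 (0.33), Cdkn1a (0.09) and Cdkn1b (0.30) did not pass.

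In bulge keratinocytes only 22 of the 45 genes could be tested and 0 passed by edgeR with or without the fold minimum, against 0.437% and 0.926% of 9608 genes (without the minimum 0.312% higher and 0.614% lower), with 3 at an unadjusted p under 0.05 and 0 by DESeq2. Log2 changes were 0.57 ± 1.04 for Mki67, 0.74 ± 0.73 for Top2a, -0.01 for Mcm6, 0.10 for Pcna, -0.10 for Rrm2, 0.25 for Ccnd1, -0.19 for Ccnd2, -0.22 for Ccnd3, 0.24 for Cdkn1a and -0.04 for Cdkn1b. Cdk1, Ccnb1 and Mcm5 were too low to be tested there. The errors of Mki67 and Top2a in the bulge exceed the changes seen in basal keratinocytes, so changes of that size were not detectable at this depth.

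In the papilla the D-type cyclin of these cells was lower in mutant skin. Ccnd3 stood at 202 and 217 CPM in control and 153 and 163 CPM in mutant papilla cells, a log2 change of -0.41 ± 0.07 (edgeR adjusted p = 0.000879), and Cdkn1a fell from 1544 and 1465 to 1172 and 1188 CPM (-0.35 ± 0.05, adjusted p = 0.000243). Both mutant libraries lay below both control libraries for each gene. This order was found for 30.7% of all 12811 genes tested, and the reverse order for 30.6%. Both changes lost significance without control library 1 (edgeR adjusted p = 0.108 for Ccnd3 and 0.0869 for Cdkn1a), and Ccnd3 also without control library 2 (0.0637). Over all alternatives the adjusted p ran from 0.000177 to 0.108 for Ccnd3 and from 5.42e-07 to 0.0869 for Cdkn1a. Only Cenpf was called with the fold minimum, 1 of 33 tested genes against 5.46% of 12811 genes (1.64% lower and 3.82% higher), at 1.89 and 2.39 CPM in control and 0.570 and 0.569 CPM in mutant cells (-1.87 ± 0.52, from 10, 12, 4 and 4 UMIs). It lost the call when any library was left out (adjusted p of 0.121 to 0.163). By adjusted p alone 4 genes were lower, against 10.6%, and 0 higher, against 12.8%, the other being Cdc20, the activator of the anaphase-promoting complex (-0.77 ± 0.23). Without control library 1, 0 of the 45 genes and 0 of all genes were called.

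Top2a (-0.30), Mcm5 (0.19), Mcm6 (0.20), Pcna (0.01), Rrm2 (-0.60), Ccnd1 (-0.32), Ccnd2 (0.06) and Cdkn1b (-0.04) did not pass in the papilla, and Mki67, Cdk1 and Ccnb1 were not tested. Of the further cell cycle genes 45 were tested. E2f2 (-1.47 ± 0.41) was called lower and Foxm1 (1.57 ± 0.53) higher, against 1.64% and 3.82% of all genes. Both are transcription factors of the cycle, at low levels. E2f2 stood at 3.39 and 2.99 CPM in control and 0.997 and 1.28 CPM in mutant cells. Foxm1 stood at 0.754 and 0.998 against 1.71 and 3.55 CPM. By adjusted p alone 4 of the further genes were higher and 3 lower, against 12.8% and 10.6%. Summed mitotic genes without Hmgb2 and Cenpa were 66.3 and 70.9 CPM in control and 65.9 and 64.8 CPM in mutant papilla cells. The thinned share of cells with at least 2 of these 24 genes was 0%, 0.347%, 0.801% and 0.689%. Unthinned it was 24.3% and 25.5% against 9.87% and 9.33%, opposite to the thinned order, so no order is read from it. The summed fibroblast marker list in papilla cells was 1403 and 885 CPM in control and 1963 and 2189 CPM in mutant libraries, and its part in these results was not tested.

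In fibroblasts Top2a and Ccna2 were called lower in mutant skin, 2 of 42 tested genes against 0.486% of 13173 genes called lower (1.81% in either direction). Top2a stood at 8.45 and 9.07 CPM in control and 2.80 and 4.64 CPM in mutant fibroblasts, a log2 change of -1.23 ± 0.24 (edgeR adjusted p = 0.00449). Ccna2, the cyclin that spans S phase and early mitosis, was at 2.04 and 2.71 CPM against 0.516 and 1.10 CPM, a log2 change of -1.54 ± 0.43 (edgeR adjusted p = 0.0344). For neither gene did control and mutant libraries overlap. Both mutant libraries lay below both control libraries for 27.0% of all genes tested, and above them for 27.8%. Without either control library neither gene passed (adjusted p of 0.312 to 0.390), and without a filter on low counts Top2a had an adjusted p of 0.173 and Ccna2 of 0.234.

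By adjusted p alone 4 genes were lower in mutant fibroblasts, against 5.44%, and 0 higher, against 6.45%. Ccnd1, for which fibroblasts were the highest group, fell from 90.8 and 96.3 to 72.4 and 75.6 CPM (-0.34 ± 0.06, edgeR adjusted p = 0.00409). The most abundant D-type cyclin of fibroblasts was Ccnd2, at 174 ± 12.8 CPM before TMM scaling. Cdkn1b changed by -0.30 ± 0.07. Cdk1 (-1.24 ± 0.59), Ccnb1 (-1.54 ± 0.65), Mki67 (-0.53 ± 0.24), Mcm5 (-0.41), Mcm6 (0.08), Pcna (-0.04), Rrm2 (0.39), Ccnd2 (-0.12), Ccnd3 (-0.02) and Cdkn1a (0.02) did not pass. Of 23 mitotic genes tested, 21 had a negative log2 change (median -0.40), against 50.2% of all genes. Summed levels of the 24 mitotic genes were 81.7 and 93.9 CPM in control and 47.0 and 71.6 CPM in mutant fibroblasts, a ratio of 0.676, beside 0.686 in basal keratinocytes. Ccnb1 shows the spread behind these errors, at 0.681 and 6.63 CPM in the control libraries.

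In T cells 6 mitotic and 6 S-phase genes were higher in mutant skin by adjusted p alone, and 1 of each was lower. Of the 23 mitotic genes tested, 19 had a positive log2 change (median 0.53). By adjusted p alone 14 of 42 tested genes were higher in mutant T cells, against 10.1% of 11286 genes, and 5 were lower, against 13.5%. With the fold minimum Rrm1 was called lower and Ccne1 higher, against 1.91% of genes lower and 1.52% higher (3.43% in either direction). Rrm1 stood at 99.5 and 106 CPM in control and 38.2 and 44.9 CPM in mutant T cells, a log2 change of -1.31 ± 0.09 (edgeR adjusted p = 9.51e-09). Ccne1 was at 1.46 and 2.04 CPM against 3.09 and 6.36 CPM, a log2 change of 1.42 ± 0.42 (edgeR adjusted p = 0.0197), from 8, 12, 17 and 35 UMIs. Mutant library 2 decided the Ccne1 call, and without it the adjusted p was 0.385. Without either control library 0 of the 45 genes and 0 of all genes passed, so the T cell calls need both control libraries.

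Top2a stood at 19.5 and 20.1 CPM in control and 34.2 and 35.3 CPM in mutant T cells, a log2 change of 0.81 ± 0.12 (edgeR adjusted p = 6.92e-05). Mki67 stood at 10.6 and 16.3 CPM against 20.5 and 24.9 CPM, a log2 change of 0.75 ± 0.18 (edgeR adjusted p = 0.00606). Control and mutant libraries were apart for both genes. Both mutant libraries lay above both control libraries for 29.8% of all genes tested, and below them for 29.8%. Rrm2 (0.95 ± 0.23), Tyms (0.87 ± 0.24), Mcm5 (0.79 ± 0.21), Kif11 (0.78 ± 0.26), Birc5 (0.75 ± 0.22), Gmnn (0.66 ± 0.15), Hmgb2 (0.62 ± 0.05), Kif23 (0.52 ± 0.15), Mcm6 (0.52 ± 0.13), Mcm7 (0.51 ± 0.17) and Cdkn1b (0.32 ± 0.07) rose by adjusted p alone. Cenpa (-0.34 ± 0.05), Ccnd1 (-0.58 ± 0.16), Ccnd2 (-0.25 ± 0.05) and Cdkn1a (-0.56 ± 0.05) fell. These changes are over all T cells, whose makeup differed between genotypes as given below, and its part in them was not tested. Cdk1 (0.53), Ccnb1 (0.23), Pcna (-0.04) and Ccnd3 (-0.18) did not pass. Of the further cell cycle genes 49 were tested. By adjusted p alone 7 were higher and 2 lower, against 10.1% and 13.5% of all genes. The kinetochore genes Nuf2 (1.85 ± 0.55) and Spc25 (1.30 ± 0.39) were called higher, at low levels. Nuf2 stood at 0.728 and 0.510 against 2.00 and 2.54 CPM, and Spc25 at 1.46 and 1.53 against 3.63 and 3.82 CPM. Ndc80, also a kinetochore gene, was lower by adjusted p alone (-0.54 ± 0.17).

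The makeup of the T cells differed between genotypes. Cells with a UMI of Gucy2c or Nap1l5, genes found in the data to mark a subset, were 62.2% and 64.8% of control and 41.9% and 44.0% of mutant T cells. Cenpa ran from 768 to 847 CPM in cells with these UMIs and from 296 to 333 CPM in cells without, and Top2a from 9.17 to 12.4 CPM with and from 33.6 to 57.2 CPM without. The summed fibroblast marker list in T cells was 248 and 411 CPM in control and 495 and 698 CPM in mutant libraries, and its part in these results was not tested.

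Tested separately, a choice made after seeing the data, the subset with these UMIs kept Rrm1 as a call (-1.02), 1 of 24 tested genes against 1.75% of 9602 genes. By adjusted p alone Hmgb2 (0.38) and Cdkn1b (0.44) were higher there and Cdkn1a (-0.18) lower, against 8.76% in either direction. The subset without these UMIs also kept Rrm1 (-1.09), 1 of 37 tested genes against 1.55% of 9585 genes. Top2a (0.57), Hmgb2 (0.36) and Rrm2 (0.97) were higher there by adjusted p alone and Cdkn1a (-0.42) lower, against 6.98% in either direction. Without TMM scaling, Rrm1 was at 118 and 134 against 51.7 and 76.7 CPM in the first subset. In the second subset it was at 62.1 and 42.7 against 29.9 and 21.0 CPM. Both mutant libraries were thus below both control libraries in each subset. After TMM scaling, 26.3% and 24.7% of all genes tested in these subsets had this order. In the subset with these UMIs Mki67 (0.41), Top2a (0.01), Mcm6 (0.61), Pcna (-0.22), Rrm2 (-0.083), Ccnd1 (-0.27), Ccnd2 (-0.03) and Ccnd3 (-0.23) did not pass, and Cdk1, Ccnb1 and Mcm5 were not tested. In the subset without them Mki67 (0.33), Cdk1 (0.10), Mcm5 (0.38), Mcm6 (0.12), Pcna (0.17), Ccnd1 (-0.23), Ccnd2 (0.042), Ccnd3 (-0.15) and Cdkn1b (0.02) did not pass, and Ccnb1 was not tested. Cenpa, lower over all T cells, changed by -0.06 in the subset with these UMIs (edgeR adjusted p = 0.584). In the subset without them it stood at 333 and 313 CPM in control and 296 and 329 CPM in mutant libraries before TMM scaling. These libraries overlapped.

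Whether the genotype changes differed between cell groups was tested directly. Between basal keratinocytes and T cells, a comparison added after seeing the data, 27 of the 45 genes differed by edgeR's interaction test, 4 more positive in basal keratinocytes and 23 more negative, against 5.82% and 6.23% of 14900 genes (12.1% in either direction). Top2a differed by -1.47 (adjusted p = 5.65e-06), Mki67 by -1.40, Cdk1 by -1.32, Mcm5 by -1.02, Rrm2 by -0.92, Mcm6 by -0.74, Cdkn1b by -0.34, Ccnd1 by 0.99, Ccnd2 by 0.57 and Cdkn1a by 0.54 on the log2 scale. Ccnb1 (-0.91), Pcna (0.04) and Ccnd3 (0.19) did not pass. The T cell side held all T cells, whose makeup differed between genotypes as given above. The part of that makeup in these differences was not tested. Between basal and suprabasal keratinocytes only Ccnd2 differed (0.36, adjusted p = 0.00226 by edgeR), 1 gene against 1.91% of 14189. The mitotic genes, lower in basal keratinocytes and not called in suprabasal ones, were thus not shown to differ between these layers. There Mki67 (-0.36), Top2a (-0.23), Cdk1 (-0.23), Ccnb1 (-0.08), Mcm5 (-0.19), Mcm6 (-0.34), Pcna (-0.20), Rrm2 (-0.10), Ccnd1 (0.24), Ccnd3 (0.08), Cdkn1a (0.03) and Cdkn1b (-0.12) did not pass. Between papilla cells and fibroblasts 4 genes differed, against 13.3% of 13734 genes: Mcm3 (1.47), Ccne1 (-0.73), Ccnd3 (-0.36) and Cdkn1a (-0.34). Mki67 (1.43), Top2a (0.96), Cdk1 (0.74), Ccnb1 (2.41), Mcm5 (0.63), Mcm6 (0.15), Pcna (0.08), Rrm2 (-0.96), Ccnd1 (0.04), Ccnd2 (0.20) and Cdkn1b (0.28) did not pass.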

How the data were processed

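The deposited files hold whole-number UMI counts per gene and cell barcode, 1 library per matrix, as the authors made them with Cell Ranger (version 3.1.0 per the file headers of the unsorted libraries, and 2.1.1 and 3.1.0 per the submitters' processing notes, which name mm10 and GRCm38). Gene identifiers and barcodes come with each matrix. Cells with 500 to 8000 genes (at least 300 in the sorted library) and at most 10% mitochondrial UMIs were kept, and doublets marked by scrublet in scanpy 1.11.5 (1.76% to 2.19% of cells) were removed. The 456 unsorted cells over the upper gene limit were richer in the 24 mitotic genes without Hmgb2 and Cenpa than kept cells. Their summed level was 199 and 210 CPM in control and 169 and 152 CPM in mutant libraries. Kept cells had 165 and 161 against 117 and 115 CPM. Cells were assigned to the marker list with the highest mean z-score, at least 0.5 and 0.25 above the next. Cells scoring as hair matrix, sebocyte, macrophage, muscle or adipocyte are not described; among sebocyte-scoring cells Mc5r was found in 0.901% and Awat2 in 9.91%.

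Counts were summed per library and group and tested with edgeR 4.0.16 (quasi-likelihood, TMM scaling, filterByExpr, Benjamini-Hochberg over all genes), with library as a block where cell groups were compared. DESeq2 1.42.0 was an alternative. The scripts were tested on simulated data. A called gene has an adjusted p under 0.05 and an absolute log2 change of at least 1. The libraries of a genotype are technical replicates, and the number of mice is not given. All 45 genes are accounted for by role. In each comparison Mki67, Top2a, Cdk1, Ccnb1, Mcm5, Mcm6, Pcna, Rrm2, the D-type cyclins and the inhibitors are named whatever their result, with every listed gene called between genotypes and, between cell groups, the 3 called genes of each role with the largest change. The genes and lists were chosen with earlier results of these data known. Intervals cover counting error only.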

Additional observations from a re-analysis of the deposited data

Results flagged for a closer look

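These genotype changes differed between cell groups by an edgeR interaction test with adjusted p under 0.05, and are given as the difference of log2 changes with no explanation. Between papilla cells and fibroblasts, Mcm3 differed by 1.47, Ccne1 by -0.73, Ccnd3 by -0.36 and Cdkn1a by -0.34. The underlying change of Mcm3 was 0.93 in the papilla and -0.51 in fibroblasts, and neither passed alone. Between basal and suprabasal keratinocytes, Ccnd2 differed by 0.36.

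Between basal keratinocytes and T cells, a comparison chosen after seeing the data, the mitotic genes that differed were Aurkb (-1.95), Bub1b (-1.64), Ccna2 (-1.51), Nusap1 (-1.48), Top2a (-1.47), Kif11 (-1.42), Mki67 (-1.40), Ube2c (-1.34), Cdk1 (-1.32), Cenpf (-1.26), Cdca8 (-1.26), Tpx2 (-1.21), Birc5 (-1.20), Smc2 (-0.96), Kif23 (-0.96) and Hmgb2 (-0.82). The S-phase genes that differed in the same direction were Tyms (-1.24), Mcm5 (-1.02), Rrm2 (-0.92), Mcm4 (-0.92), Gmnn (-0.83) and Mcm6 (-0.74), and Cdkn1b differed by -0.34. In the opposite direction were Ccnd1 (0.99), Rrm1 (0.91), Ccnd2 (0.57) and Cdkn1a (0.54). These differences were not tested with libraries left out. They were also not tested within the T cell subsets, whose shares differed between genotypes.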

How the results depend on the processing

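In basal keratinocytes, 27 to 32 genes were lower by adjusted p alone with each library left out, and 19 by DESeq2. Called genes numbered 0 by DESeq2 and 0 with the gate lead doubled, 29 with no fold minimum, and 1 to 2 with a library left out. In suprabasal keratinocytes the 1 gene higher by adjusted p alone became 0 by DESeq2, without a low-count filter, with the replicate block and with the lead doubled, and 0 to 1 with a library left out (called 0 to 1, lower 0 to 1; 1 with no fold minimum). In upper follicle keratinocytes leaving out a library gave 0 to 5 called, 0 to 2 higher and 0 to 6 lower.

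In the papilla, called genes were 0 by DESeq2, without a filter and without the gene limit, 2 with the lead doubled, 4 with no fold minimum and 0 to 1 with a library left out. Genes lower by adjusted p alone were 2 by DESeq2, 2 without a filter and 0 to 2 with a library left out; higher ones were 1 without the gene limit, 1 with the lead doubled and 0 to 1 with a library left out. In fibroblasts, called genes were 1 by DESeq2, 0 without a filter, 6 with the lead doubled, 4 with no fold minimum and 0 to 4 with a library left out, and lower genes were 2, 0, 10 and 0 to 6 under the same settings (no fold minimum aside). In T cells, called genes were 1 by DESeq2, 1 without a filter, 19 with no fold minimum, 1 in each subset and 0 to 3 with a library left out. Higher genes there, 14 in all, were 2 by DESeq2, 5 without a filter, 2 and 3 in the subsets with and without a UMI of Gucy2c or Nap1l5, and 0 to 12 with a library left out. Lower genes were 3 without a filter, 2 in each subset and 0 to 5 with a library left out. Papilla against fibroblasts gave 20 with no fold minimum, and their interaction 1 without a filter and 9 with the lead doubled.

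Over all genes, calls were 700 in the papilla, 402 by DESeq2 and 374 without a filter; 239, 122 and 59 in fibroblasts; 387, 174 and 251 in T cells; 330 and 160 (DESeq2) in basal keratinocytes; 162 and 87 (DESeq2) in suprabasal keratinocytes; 36, 20 and 56 in upper follicle keratinocytes; and 42, 13 and 125 in the bulge. Reversed values, all with the cause not tested, were Rrm2 (-0.083) in T cells with Gucy2c or Nap1l5 and Ccnd2 (0.042) in those without. In fibroblasts the mutant minus control share of cells with mitotic genes was -0.12 points (1000 UMIs), -0.38 (at least 3 genes) and -0.41 (without Hmgb2 and Cenpa), and with S-phase genes -0.13 (1000 UMIs) and -1.55 (at least 1 gene). The S-phase share in T cells became 0.40 (1000 UMIs) and 0.29 (at least 3 genes). Summed S-phase CPM became -0.035 in upper follicle keratinocytes without the gene limit and -4.57 in the bulge with the lead doubled.

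The replicate numbers are shared labels only, with correlations of deviations from -0.09 in the papilla to 0.14 in fibroblasts. With the replicate block, calls over all genes were 334 in basal keratinocytes, 703 in the papilla, 67 in the bulge and 63 in upper follicle keratinocytes, and 0 suprabasal members were higher. DESeq2 gave no adjusted p for Cenpf (papilla), Ccna2 (fibroblasts) and Ccne1 (T cells). Counting by adjusted p alone and the T cell subsets were chosen after seeing the data. The interaction tests were not run with libraries left out or by DESeq2. Low counts limit the bulge, papilla and pericyte values.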

Other observations

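Some genotype differences were seen in groups that were not tested, and were picked after their values were seen. Ccnd1 in the dermal sheath stood at 14.2 and 13.6 CPM in control and 59.7 and 47.5 CPM in mutant libraries, from 11, 14, 113 and 86 UMIs. Ccnb1 there was at 1.29 and 0 CPM in control and 10.0 and 15.5 CPM in mutant libraries, from 1, 0, 19 and 28 UMIs. In blood endothelial cells Ccnd2 stood at 596 and 590 CPM in control and 398 and 405 CPM in mutant libraries. For each of these genes the genotypes did not overlap. In the tested groups that alone was common, at 19.7% to 30.7% of all genes in each direction.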
